A study of Drosophila melanogaster with 9 samples.

Results

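The genes of the Mediator complex were followed on Affymetrix arrays of total RNA from whole testes of *Nxt1* mutant, *aly* mutant and control flies, with 3 arrays for each genotype. Members were the genes whose symbol is MED and a number, together with the 4 genes of the kinase module, *CycC*, *Cdk8*, *kto* and *skd*. Of the 29 genes that meet this rule in the gene table, 26 were measured by a probe set that carries 1 gene symbol, among 11981 genes measured in that way. *MED9* and *MED23* were represented only by probe sets shared with *CG42518* and *CG3700*, no probe set was listed for *MED22*, and no value is given for these genes. The probe sets of *MED6*, *MED26*, *MED31* and *skd* carry the suffix _s_at, and those of *MED14*, *MED18* and *MED21* the suffix _a_at. The array maker gives both suffixes to probe sets that can match several transcripts. The *Nxt1* flies were *w; Nxt1[z2-0488]/Nxt1[DG05102]*, which pairs an amino acid substitution with an insertion, and were raised at 25°C. The *aly* flies were *aly[5] red[1] e[1]* and were raised at 27°C. The control flies, whose testes the labels call normal, were *w; tinRNAi/+; bamGal4VP16/+* and were raised at 29°C, with the hairpin against *tin* driven in germline cells by bam regulatory sequences. All males were dissected within a day of eclosion, and germ cells of both mutants stop as primary spermatocytes, so meiotic and later stages are found in control testes only.

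Mediator is the large protein assembly that carries information from DNA-bound transcription factors to RNA polymerase II at the promoter. Its head and middle modules contact the polymerase, its tail module contacts activators, *MED14* forms the backbone that joins them, and a kinase module of *Cdk8*, Cyclin C, Kohtalo (*kto*, the fly *MED12*) and Skuld (*skd*, the fly *MED13*) binds reversibly and hinders polymerase binding. In fly spermatocytes Mediator is known to act on spermatid differentiation genes with the testis form of the Myb-MuvB complex (tMAC), of which Aly is a subunit, and with testis-specific TBP-associated factors (TAFs), while Nxt1 is a cofactor of the mRNA export receptor.

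The values are signal intensities made by the authors with RMA, which corrects background, gives all arrays a like distribution of values and merges the probes that target a transcript into a probe set value. The median intensity over all probe sets lay between 98.4 and 109.5 on the 9 arrays. The *aly* probe set gave 52.8, 50.8 and 57.5 in *aly* testes, against 106, 93.4 and 98.0 in control testes, and the *Nxt1* probe set gave 808, 940.5 and 859 in *Nxt1* testes, against 344, 350.3 and 351 in control testes, so the signal of *Nxt1*, whose alleles are a substitution and an insertion, does not check the labels. The ranges of summed marker intensity overlapped between the groups for muscle and set at least 1 mutant apart from control for the other cell types. The sum of 4 measured of 6 listed early germline genes was 5258 to 5629 on *Nxt1*, 5081 to 5349 on *aly* and 2536 to 2877 on control arrays, and that of 13 of 17 genes transcribed in spermatids was 7416 to 8464, 8149 to 8457 and 76738 to 78071 in the same order. The early germline sum was carried mainly by *bgcn* and *aub*. Of the same list *vas* went the other way, averaging 47.9 in *Nxt1*, 55.2 in *aly* and 66.9 in control testes. The sum of 6 of 8 cyst and hub cell genes was 1532 to 1636 on *Nxt1*, 1323 to 1541 on *aly* and 1032 to 1141 on control arrays, and that of 9 of 12 muscle genes was 4905 to 7537, 6376 to 7363 and 6536 to 6852. Of the cyst and hub cell genes, *tj* went the other way in *Nxt1*, averaging 45.3 against 59.3 in control testes. The muscle genes moved apart within their sum. Among them *sls* averaged 173 in *Nxt1*, 85.2 in *aly* and 1157 in control testes, and *up* averaged 502, 651 and 297 in the same order. The sum of 14 of 15 accessory gland genes was 72406 to 187434, 61017 to 133417 and 1449 to 45484, and that of 3 of 6 fat body genes was 373 to 631 on *Nxt1*, 5397 to 7067 on *aly* and 249 to 466 on control arrays. The part of these cells in the members' values was not tested. In RNA of whole testes, fewer cells of a type cannot be told apart from less RNA per cell, and neither culture temperature nor the array batch can be told apart from genotype, since temperatures differed and the *Nxt1* arrays were set against existing ones. The labels do not say whether arrays came from separate cultures, so p-values measure the spread between these arrays only.

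Most Mediator subunit genes gave more signal in both mutants than in control testes on the authors' scale, and *kto* gave less. In *Nxt1* testes 24 of the 26 genes were higher than in control testes, 1 was lower and 1, *MED26*, did not pass the test. Over all 18769 probe sets, 34.1% were called higher and 24.2% lower in this comparison. The median log2 difference of the members was 0.92, against -0.01 over all probe sets, and single genes ranged between -1.20 and 2.67. The difference was at least 2-fold for 11 genes that were higher (18.4% of all probe sets) and for *kto* (11.3% of all probe sets). Of the 24 genes called higher, 8 were called higher under each of 5 array scalings and 8 were called in either direction depending on the scaling.

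In *aly* testes 22 genes were higher than in control testes, *kto* was lower and *MED6*, *MED18* and *MED26* did not pass, where 44% of all probe sets were called higher and 20% lower. The median log2 difference of the members was 1.65, against 0.21 over all probe sets, and the range was -1.37 to 3.11. At least 2-fold differences were found for 19 genes that were higher (21.9% of all probe sets) and for *kto* (12.8% of all probe sets). Of the 22 genes, 17 were called higher under each scaling, and *MED15*, *MED27* and *skd* were called in either direction. Both mutants were compared with the same 3 control arrays, so the values of the 2 comparisons are not independent and are given side by side. The 3 mutant arrays lay above the 3 control arrays for 24 members in *Nxt1* (37.1% of all probe sets) and for 22 members in *aly* (46% of all probe sets), and *kto* was the 1 member for which they lay below in each mutant (32.1% of all probe sets in *Nxt1* and 20.8% in *aly*).

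**Figure D1:**
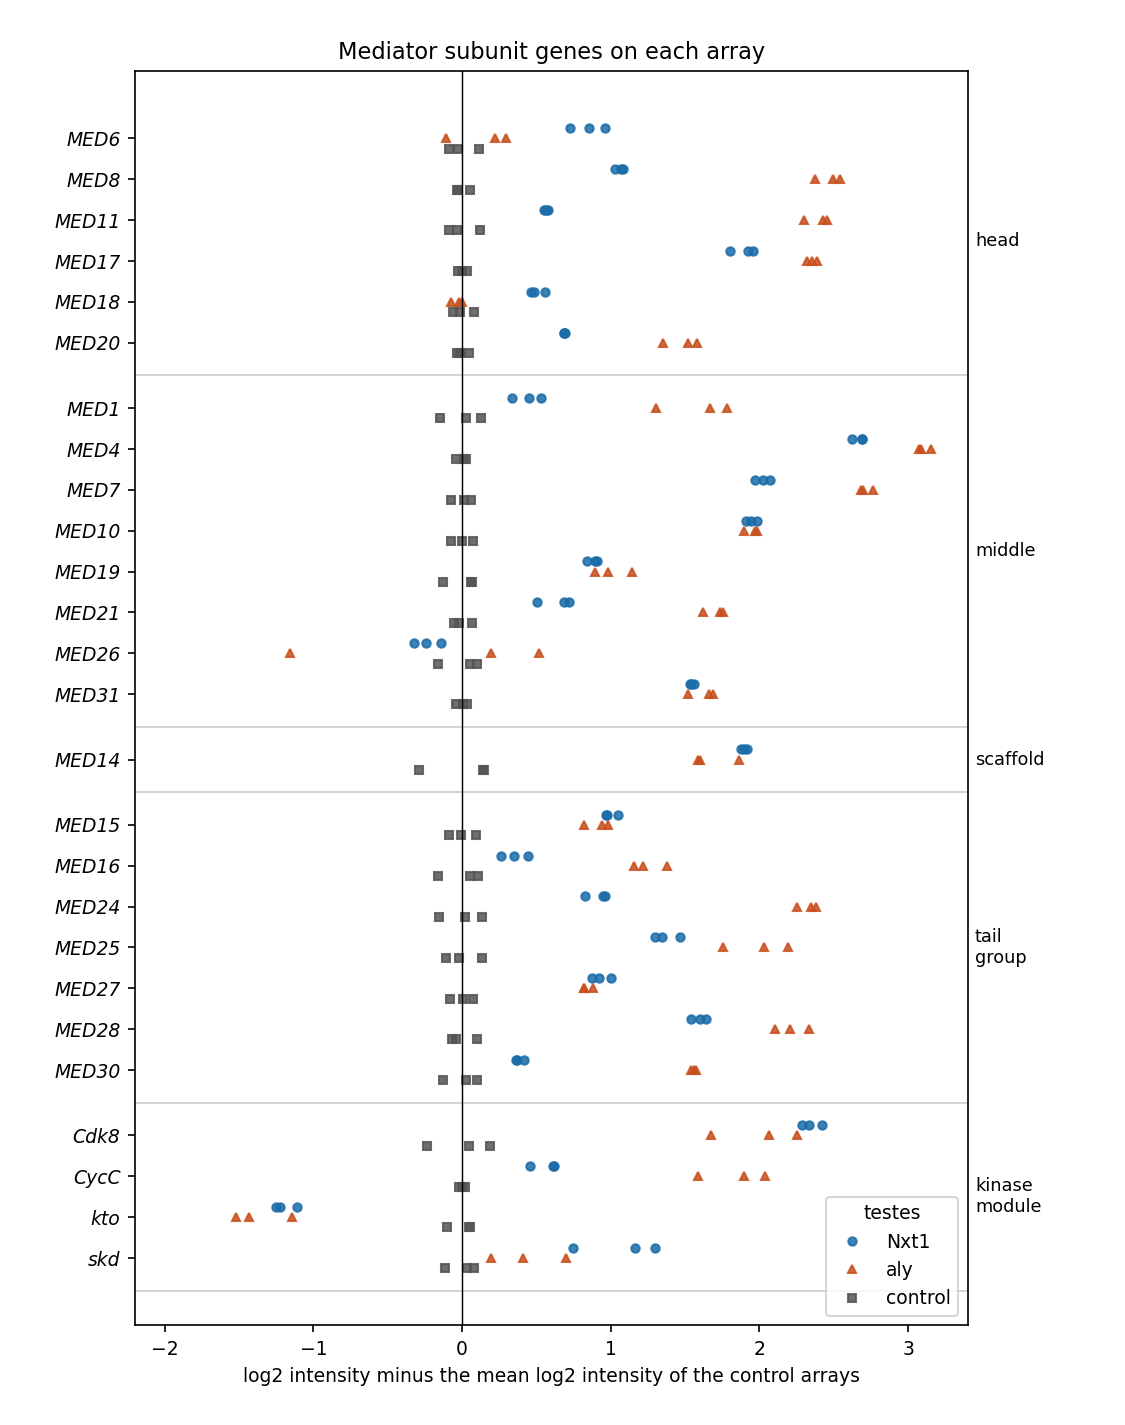
Log2 intensity of the 26 measured Mediator subunit genes on each array, minus the mean log2 intensity of the 3 control arrays, on the authors' scale. Each point is an array, with *Nxt1* arrays (circles) above *aly* arrays (triangles) and control arrays (squares) in each row, and genes are ordered by module. *Nxt1* and *aly* points lie to the right of the control points for most genes and to the left for *kto*, while other array scalings move all points of an array by the same amount.

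Of the 6 measured head genes, all were higher in *Nxt1* testes (median log2 difference 0.77) and 4 were higher in *aly* testes (median 1.92), with *MED11*, *MED18* and *MED20* called in either direction in *Nxt1* under other scalings. The head is the module that meets the polymerase and the general factors. *MED8*, which in yeast anchors the movable jaw of the head, gave 1719.98, 1735 and 1678 in *Nxt1* testes, 4247, 4788 and 4636 in *aly* testes and 853, 806 and 803 in control testes. The 3 groups did not overlap, and the *aly* arrays were the highest. The log2 difference from control was 1.06 in *Nxt1* (SE 0.07, adjusted p = 6.02e-07) and 2.47 in *aly* (SE 0.07, adjusted p = 7.92e-10). With arrays centred on the median of ribosomal protein probe sets, the *Nxt1* value was -0.07 (adjusted p = 0.406).

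*MED11*, a small head subunit, gave 457, 448 and 453 in *Nxt1* testes, 1508, 1679 and 1653 in *aly* testes and 333, 299.9 and 289 in control testes. Here too the groups were separate, with *Nxt1* arrays close to the control arrays and *aly* arrays far above both. It was 1.48-fold higher than in control in *Nxt1* (log2 difference 0.56, SE 0.08, adjusted p = 1.58e-04) and 5.26-fold higher in *aly* (log2 difference 2.39, SE 0.08, adjusted p = 1.86e-09). *MED17*, the central subunit of the head, averaged 2083 ± 115 in *Nxt1*, 2871 ± 66.2 in *aly* and 561 ± 12.2 in control testes (SD, n = 3 each), and *MED20*, a jaw subunit, averaged 924 ± 3.24, 1610 ± 130 and 574 ± 16.4 in the same order. Both genes were higher in each mutant than in control, *MED17* by 1.89 and 2.36 and *MED20* by 0.69 and 1.49 on the log2 scale in *Nxt1* and in *aly*.

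*MED6* and *MED18* were the members called in *Nxt1* and not in *aly* on the authors' scale. They are named for this count, after their values were seen. *MED6*, which in yeast sits where the head meets the middle module, gave 1346, 1249.95 and 1144 in *Nxt1* testes, 805, 639.8 and 848 in *aly* testes and 678, 649.8 and 748 in control testes. The *aly* arrays overlapped the control arrays, and the *Nxt1* arrays were above both. The log2 difference from control was 0.85 in *Nxt1* (adjusted p = 1.28e-04) and 0.14 in *aly* (95% confidence interval -0.13 to 0.40, adjusted p = 0.343), and 0.26 in *aly* without its replicate 2 (adjusted p = 0.0437). *MED18*, another jaw subunit, gave 1735, 1649 and 1624.5 in *Nxt1* testes, 1121, 1177 and 1163 in *aly* testes and 1165, 1243 and 1128 in control testes. Again the *Nxt1* arrays alone stood above the others. Its log2 difference from control was 0.50 in *Nxt1* (adjusted p = 1.53e-04) and -0.03 in *aly* (95% confidence interval -0.19 to 0.13, adjusted p = 0.73). Under 3 of the 5 scalings both genes were called lower in *aly*, at -0.49 to -1.08 for *MED6* (largest adjusted p = 0.00832) and -0.66 to -1.25 for *MED18* (largest adjusted p = 2.46e-05). The *Nxt1* calls depended on scaling too. *MED6* was called higher in *Nxt1* under 2 of the 5, and did not pass at 0.20, 0.07 and -0.28 under the others. *MED18* was called higher in *Nxt1* under 2 and lower under 2 (-0.27 and -0.63, adjusted p = 0.0100 and 1.30e-05).

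Among the 8 measured genes of the middle module, 7 were higher in each mutant, with medians of 1.21 in *Nxt1* and 1.66 in *aly*, and *MED1* and *MED21* were called in either direction in *Nxt1* under other scalings. *MED4*, a conserved subunit of the middle module, showed the largest difference of any member in both mutants on the authors' scale. With arrays centred on *CG3927* or on the ribosomal median, the difference of *kto* was larger in size in both mutants. With the ribosomal median it was -2.32 in *Nxt1* and -2.58 in *aly*, against 1.54 and 1.89 for *MED4*. *MED4* gave 2199.6, 2100.2 and 2199 in *Nxt1* testes, 2874, 3039 and 2903 in *aly* testes and 344, 348 and 332 in control testes. The 3 groups were far apart relative to their spread. *MED4* was 6.35-fold higher in *Nxt1* (log2 difference 2.67, SE 0.07, adjusted p = 5.96e-10) and 8.61-fold higher in *aly* (log2 difference 3.11, SE 0.07, adjusted p = 1.04e-10) than in control testes.

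*MED7*, which pairs with *MED21* in a long hinge of the middle module, gave 2165, 2085 and 2240.1 in *Nxt1* testes, 3452, 3621 and 3429.9 in *aly* testes and 506, 538 and 557 in control testes. No groups overlapped, and the log2 difference from control was 2.02 in *Nxt1* (SE 0.07, adjusted p = 5.06e-09) and 2.71 in *aly* (SE 0.07, adjusted p = 3.73e-10). Its partner *MED21* differed from control by 0.64 in *Nxt1* and 1.70 in *aly*. *MED10*, a further conserved middle subunit, gave 5434, 5736 and 5565 in *Nxt1* testes, 5389.9, 5674 and 5721 in *aly* testes and 1451, 1373 and 1526 in control testes. The arrays of the 2 mutants overlapped fully, well above the control arrays. The log2 difference from control was 1.95 in each mutant (SE 0.07, adjusted p = 6.36e-09 in *Nxt1* and 3.66e-09 in *aly*).

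*MED31*, a small conserved subunit, differed from control by 1.54 in *Nxt1* and 1.62 in *aly* on the log2 scale, and *MED19*, which binds Hox proteins in flies, by 0.88 and 1.01. *MED1*, a contact of nuclear hormone receptors in mammals, was higher in *Nxt1* (log2 difference 0.44, adjusted p = 0.0151) and higher by more in *aly* (log2 difference 1.58, adjusted p = 1.77e-06). The *Nxt1* call of *MED1* was lost without *Nxt1* replicate 1 (adjusted p = 0.0538) or without control replicate 2 (adjusted p = 0.061).

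*MED26*, which in mammals recruits elongation factors, was the member that passed in neither mutant on the authors' scale. It gave 1654, 1772 and 1563 in *Nxt1* testes, 2793, 875 and 2236 in *aly* testes and 2100.05, 1749.8 and 2033 in control testes. Replicate 2 of *aly* was far below the other arrays of its group, and the *aly* arrays spanned those of both other groups. The log2 difference from control was -0.24 in *Nxt1* (95% confidence interval -1.01 to 0.54, adjusted p = 0.596) and -0.15 in *aly* (95% confidence interval -0.93 to 0.63, adjusted p = 0.723). Without *aly* replicate 2 the *aly* difference was 0.35 (adjusted p = 0.0308). *MED26* was called lower in *Nxt1* under 3 of the 5 scalings (-0.88 to -1.36, adjusted p = 0.0482 to 0.00502) and in *aly* under 2 (-1.29 and -1.37, adjusted p = 0.00809 and 0.00488).

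*MED14*, the backbone subunit, was higher in both mutants under every scaling. It gave 2348, 2318 and 2288 in *Nxt1* testes, 2265, 1869 and 1885 in *aly* testes and 685, 509 and 690.4 in control testes. Each mutant array exceeded each control array, and the *Nxt1* arrays lay just above the *aly* arrays. The log2 difference from control was 1.90 in *Nxt1* (SE 0.13, adjusted p = 4.62e-07) and 1.68 in *aly* (SE 0.13, adjusted p = 9.36e-07).

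The 7 measured genes of the tail, with which *MED25*, *MED27*, *MED28* and *MED30* are grouped here, were all higher in both mutants on the authors' scale, with medians of 0.93 in *Nxt1* and 1.56 in *aly*, while under other scalings *MED16* and *MED30* were also called lower in *Nxt1* and *MED15* and *MED27* in *aly*. With the ribosomal median the *Nxt1* differences of *MED15* (-0.13), *MED24* and *MED27* (-0.20) were also below 0 without passing. Sources differ on the module of *MED27*, *MED28* and *MED30*. *MED24*, a subunit that in mammals associates with *MED16* and *MED23*, gave 265, 289.9 and 288 in *Nxt1* testes, 758, 711 and 778 in *aly* testes and 151, 134 and 164 in control testes. All arrays of a group lay together and apart from the other groups. *MED24* was 1.88-fold higher in *Nxt1* (log2 difference 0.91, SE 0.09, adjusted p = 1.04e-05) and 5.02-fold higher in *aly* (log2 difference 2.33, SE 0.09, adjusted p = 5.59e-09), and with arrays centred on the median of ribosomal protein probe sets the *Nxt1* value was -0.22 (adjusted p = 0.082).

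The tail subunits did not move as a block. *MED15*, the subunit that activators bind in yeast, averaged 2702 ± 80.8 in *Nxt1*, 2549.6 ± 145 in *aly* and 1355 ± 86.5 in control testes (SD, n = 3 each), and differed from control by 1.00 and 0.91 on the log2 scale. *MED27* was alike, at 0.93 in *Nxt1* and 0.84 in *aly*. *MED25*, which binds activators in mammals, differed from control by 1.37 in *Nxt1* and 1.99 in *aly*, and *MED28* by 1.59 and 2.22. *MED16* was 1.27-fold higher in *Nxt1* (log2 difference 0.35, adjusted p = 0.0121) and 2.38-fold higher in *aly* (log2 difference 1.25, adjusted p = 1.34e-06). *MED30* was 1.30-fold higher in *Nxt1* (log2 difference 0.38, adjusted p = 0.00168) and 2.94-fold higher in *aly* (log2 difference 1.56, adjusted p = 3.22e-08). The intersex gene *ix*, the fly *MED29*, does not meet the naming rule and was dim, with 70.5, 88.1 and 83.4 in *Nxt1* testes, 87.5, 128 and 100.02 in *aly* testes and 71.7, 74.4 and 79.4 in control testes. It overlapped control in *Nxt1* (log2 difference 0.10, adjusted p = 0.593) and was above it on every *aly* array on the authors' scale (log2 difference 0.47, adjusted p = 0.0149).

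The 4 genes of the kinase module differed from control in different directions. *Cdk8*, *CycC* and *skd* were higher in both mutants on the authors' scale, while *kto* was lower in both under every scaling. *Cdk8*, the kinase itself, gave 285, 303 and 275 in *Nxt1* testes, 180.3, 269.98 and 236 in *aly* testes and 48.0, 64.3 and 58.4 in control testes. Every mutant array was brighter than every control array, and the *aly* arrays were the more scattered. The control values were dim, below the median of all probe sets on those arrays (107 to 109), so the size of the fold difference is uncertain. *Cdk8* was 5.09-fold higher in *Nxt1* (log2 difference 2.35, SE 0.15, adjusted p = 3.78e-07) and was also higher in *aly* (log2 difference 1.998, SE 0.15, adjusted p = 1.06e-06), under every scaling.

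*CycC*, the cyclin that activates *Cdk8*, gave 926, 1035 and 1031 in *Nxt1* testes, 2028, 2772 and 2517 in *aly* testes and 666, 684 and 674 in control testes. The groups were separate, with *Nxt1* nearer to control than to *aly*. *CycC* was 1.48-fold higher in *Nxt1* (log2 difference 0.56, SE 0.11, adjusted p = 0.00159) and 3.59-fold higher in *aly* (log2 difference 1.84, SE 0.11, adjusted p = 1.67e-07). The *aly* difference was called under every scaling, and the *Nxt1* difference was -0.57 (adjusted p = 3.28e-04) with arrays centred on the median of ribosomal protein probe sets.

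The gene *kto*, which encodes the subunit that in mammals activates the kinase, gave 624, 675 and 611 in *Nxt1* testes, 658, 509 and 540.2 in *aly* testes and 1505, 1359 and 1509 in control testes. All 6 mutant arrays were far below the 3 control arrays, and the 2 mutants overlapped each other. It was 2.29-fold lower in *Nxt1* (log2 difference -1.20, 95% confidence interval -1.43 to -0.96, adjusted p = 3.73e-06) and 2.58-fold lower in *aly* (log2 difference -1.37, 95% confidence interval -1.60 to -1.13, adjusted p = 1.08e-06). No other member was called lower in either mutant on the authors' scale.

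The gene *skd*, which encodes the subunit that joins the kinase module to the rest of Mediator, was the member with a second probe set. The brighter one gave 414, 281 and 376 in *Nxt1* testes, 223, 192 and 273 in *aly* testes and 171, 155 and 178 in control testes. The groups did not overlap, though the gap between *aly* and control arrays was small. It was 2.10-fold higher in *Nxt1* (log2 difference 1.07, SE 0.16, adjusted p = 2.42e-04) and 1.35-fold higher in *aly* (log2 difference 0.44, SE 0.16, adjusted p = 0.0394). Its *aly* call was lost in 6 of the 9 fits that left out 1 array, at adjusted p of 0.0513 to 0.135. The second probe set was near the dim end, with 71.6, 53.9 and 76.7 in *Nxt1* testes, 77.2, 35.0 and 54.5 in *aly* testes and 48.1, 49.2 and 43.3 in control testes, and passed in neither mutant (log2 difference 0.51, adjusted p = 0.109 in *Nxt1* and 0.17, adjusted p = 0.563 in *aly*).

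**Figure D2:**
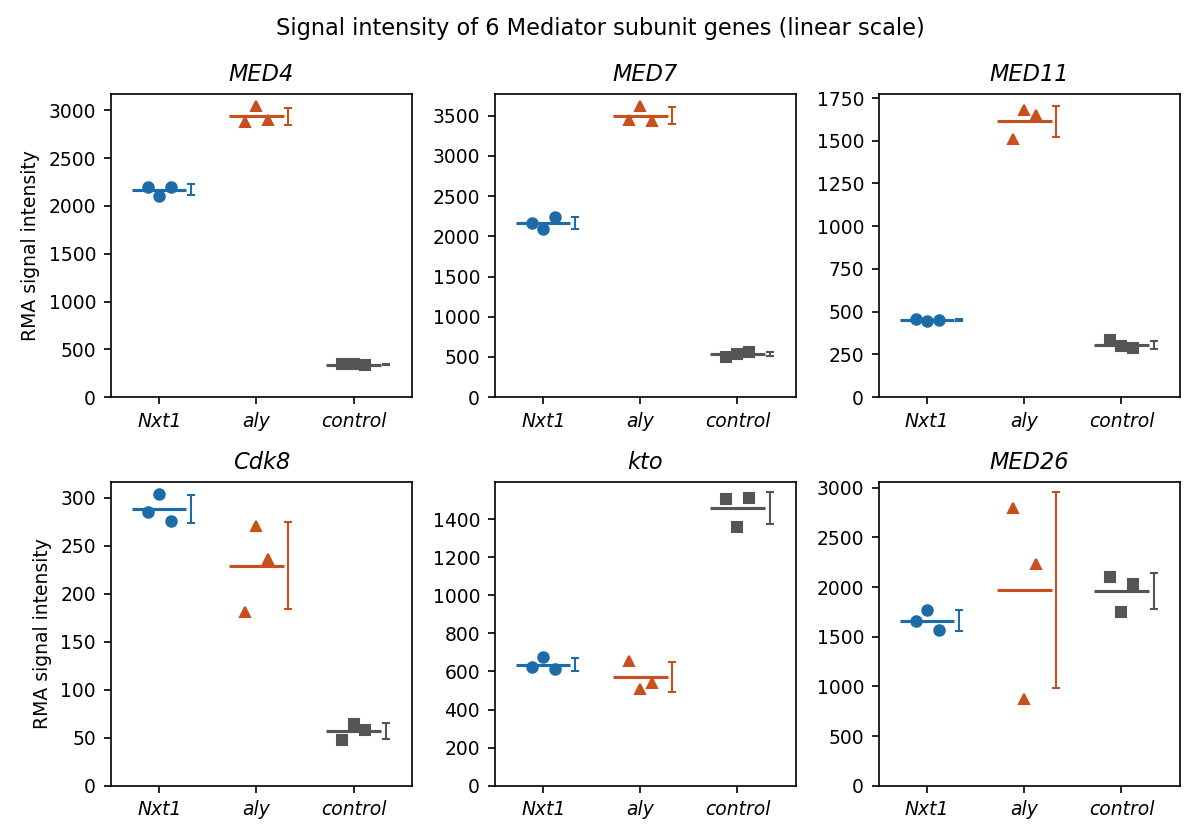
RMA signal intensity, on a linear scale that starts at 0, of *MED4*, *MED7*, *MED11*, *Cdk8*, *kto* and *MED26* in *Nxt1*, *aly* and control testes. Points are arrays, horizontal lines are means and the bars beside them are the SD of 3 arrays. *MED4*, *MED7* and *Cdk8* lie far above control in both mutants, *MED11* mainly in *aly*, *kto* lies below control in both, and 1 *aly* array of *MED26* is at 875 while the others are at 2236 and 2793.

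The 2 mutants were then set against each other. In *Nxt1* testes 14 members were lower than in *aly* testes and 3, *MED6*, *MED18* and *skd*, were higher, while 9 did not pass. Of all probe sets 38.5% were called lower and 20.6% higher in this comparison. The median of the members was -0.45, against -0.18 over all probe sets, and the range was -1.83 to 0.71. At least 2-fold lower signal was found for 7 members (7.42% of all probe sets), and no member was 2-fold higher in *Nxt1* (9.46% of all probe sets). The *Nxt1* arrays lay below the *aly* arrays for 14 members (42.3% of all probe sets) and above them for 5 (22% of all probe sets), which were *MED6*, *MED18*, *skd*, *MED14* and *Cdk8*.

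The largest gap was that of *MED11*, which was 3.56-fold lower in *Nxt1* than in *aly* testes (log2 difference -1.83, SE 0.08, adjusted p = 4.59e-08). *MED24* followed at -1.41 (adjusted p = 7.45e-07), *MED8* at -1.41 (adjusted p = 1.56e-07) and *CycC* at -1.28 (adjusted p = 7.48e-06). *MED1*, *MED21* and *MED30* were also more than 2-fold lower, at -1.14, -1.07 and -1.18. The 3 genes that were higher in *Nxt1* were *MED6* at 0.71 (adjusted p = 6.39e-04), *skd* at 0.63 (adjusted p = 0.00811) and *MED18* at 0.53 (adjusted p = 1.59e-04). All 3 of these, and 11 of the 14 that were lower, kept their call under each of the 5 scalings.

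By module, 2 head genes were higher in *Nxt1* than in *aly* testes and 4 were lower, 4 middle genes were lower and 4 did not pass, and 5 genes grouped with the tail were lower and 2 did not pass. Of the kinase module, *skd* was higher, *CycC* was lower and *Cdk8* and *kto* did not pass. The interval of the difference was 0.0034 to 0.70 for *Cdk8* (log2 difference 0.35, adjusted p = 0.0755) and -0.07 to 0.41 for *kto* (log2 difference 0.17, adjusted p = 0.189). *Cdk8* passed without *aly* replicate 2 (0.48, adjusted p = 0.0227) and *kto* without *aly* replicate 1 (0.28, adjusted p = 0.0225). *MED14* differed by 0.21 (95% confidence interval -0.07 to 0.50, adjusted p = 0.173) and *MED10* by -0.00 (95% confidence interval -0.17 to 0.16, adjusted p = 0.965). Of the 9 genes that did not pass, *MED26* had the widest interval, -0.86 to 0.69, and its difference was -0.59 without *aly* replicate 2 (adjusted p = 0.00329).

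**Figure D3:**
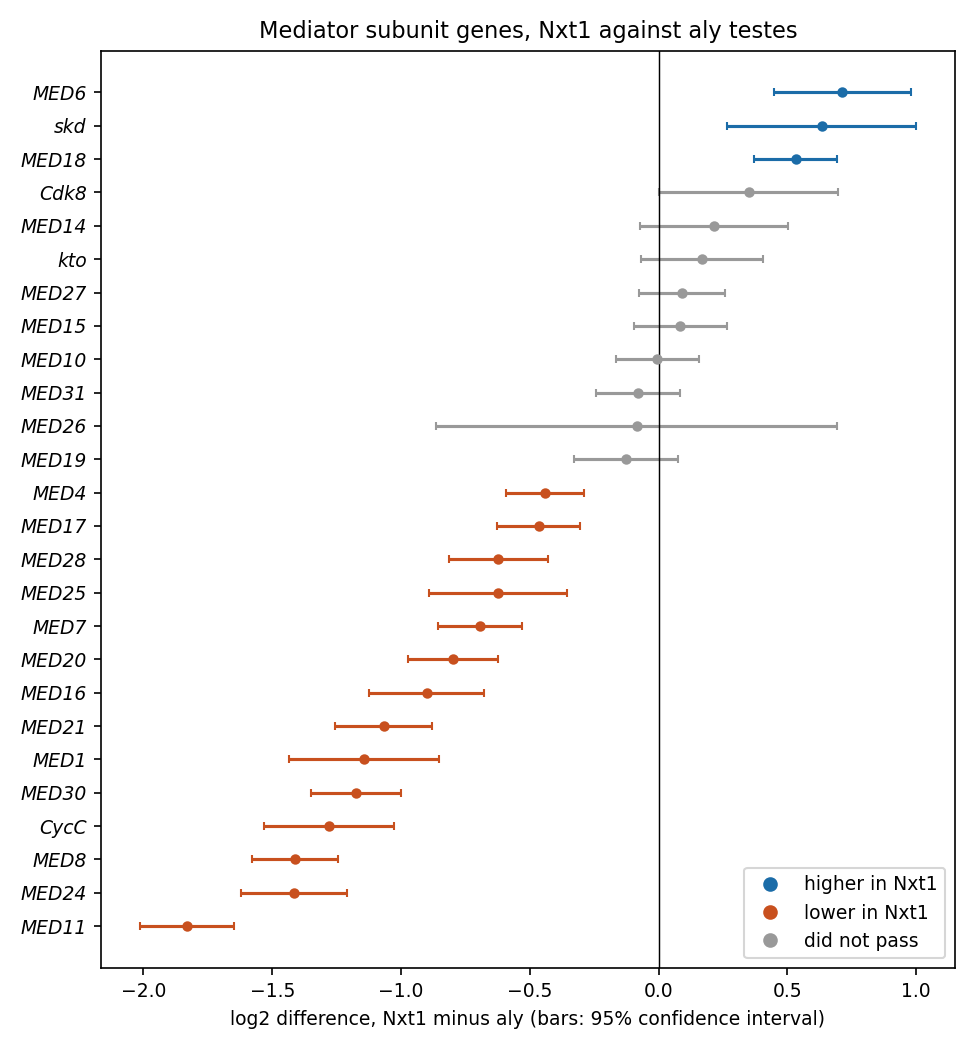
Log2 difference of each Mediator subunit gene, *Nxt1* minus *aly* testes, with its 95% confidence interval, ordered by size. Points left of 0 are lower in *Nxt1* testes, and colours mark the 3 genes called higher, the 14 called lower and the 9 that did not pass. *MED11* lies farthest to the left at -1.83 and *MED6* farthest to the right at 0.71.

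RMA sets the arrays to a common distribution, and the number of members called higher differed between array scalings. Centring on the array median left the counts at 24 higher and 1 lower in *Nxt1* and at 22 and 1 in *aly*. Centring on the mean of 47 ribosomal protein probe sets, which were themselves 0.65 higher in *Nxt1* and 0.63 higher in *aly* on the log2 scale, gave 14 higher and 4 lower in *Nxt1* and 21 and 3 in *aly*. *CG3927* was the control gene of the q-RT-PCR assays, and the authors describe its expression as limited to primary spermatocytes. They judged it similar to wild type in *Nxt1* mutant testes, while here it was 0.77 higher in *Nxt1* and 1.14 higher in *aly*. Centring on *CG3927* gave 10 and 6 in *Nxt1* and 17 and 6 in *aly*. With the median of the ribosomal protein probe sets, a setting added after the data were seen because ribosomal protein paralogs moved apart, the shift was 1.13 in *Nxt1* and 1.22 in *aly*, and the counts were 8 higher and 10 lower in *Nxt1* and 17 and 7 in *aly*. The shares of all probe sets called higher under these last 3 settings were 19.4%, 16.8% and 11.2% in *Nxt1* and 23.2%, 14.3% and 13% in *aly*, and the shares called lower were 66.1%, 69.1% and 77.7% in *Nxt1* and 58.6%, 74.1% and 76% in *aly*. The genes called higher in *Nxt1* under each setting were *Cdk8*, *MED4*, *MED7*, *MED10*, *MED14*, *MED17*, *MED28* and *MED31*. In *aly* the same 8 genes were joined by *CycC*, *MED1*, *MED8*, *MED11*, *MED20*, *MED21*, *MED24*, *MED25* and *MED30*.

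**Figure D4:**
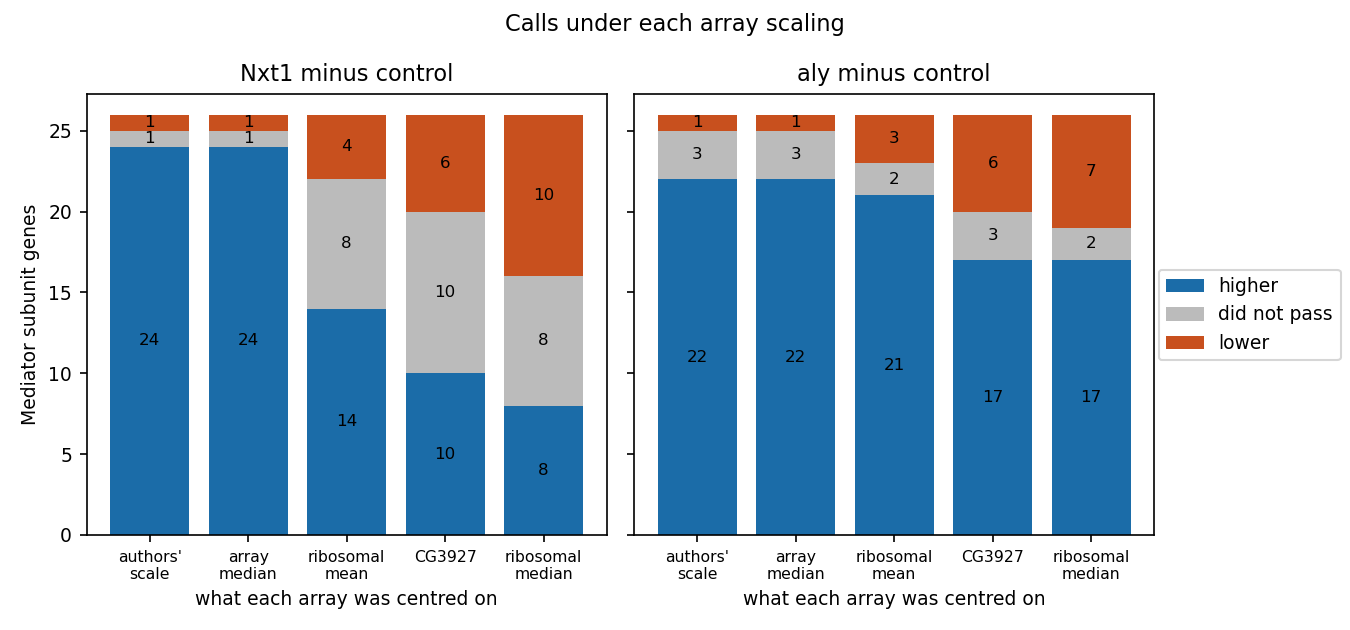
Number of Mediator subunit genes called higher, not called and called lower for *Nxt1* minus control (left) and *aly* minus control (right) under 5 array scalings. Each bar holds the 26 measured genes, and the ribosomal bars centre each array on the mean or the median of 47 ribosomal protein probe sets. The number called higher in *Nxt1* is 24 on the authors' scale and 8 with the ribosomal median, and in *aly* it is 22 and 17.

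A difference between members on the same arrays does not depend on the scaling, and subunit genes moved apart from each other. Relative to the median of all members on the same array, *kto* fell by 2.46 in *Nxt1* and by 2.98 in *aly* on the log2 scale, with no overlap between mutant and control arrays. *MED26* fell by 1.501 in *Nxt1* and fell by 1.762 in *aly*, the next largest changes of that sign, again with no overlap between mutant and control arrays. On the *aly* arrays *MED26* stood at 0.38, -1.03 and 0.12, so the rank of its fall there rests on replicate 2. *MED18* stood at -0.94, -0.61 and -0.82 on the same arrays. Lack of overlap was common among the members and not particular to *kto* and *MED26*. In both mutants it was also seen for *MED4*, *MED6*, *MED7*, *MED8*, *MED10*, *MED11*, *MED15*, *MED17*, *MED18*, *MED19*, *MED24*, *MED27* and *MED28*. *MED4* gained 1.40 in *Nxt1* and 1.49 in *aly* on that measure, *MED7* gained 0.75 and 1.10, and *Cdk8* gained 1.08 and 0.39. The *aly* and control arrays of *Cdk8* overlapped on that measure. *MED18* lost 0.76 in *Nxt1* and 1.64 in *aly*, and *MED6* lost 0.42 and 1.48. These values are descriptions, since the median was taken over the same genes.

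The genes that work beside Mediator at the promoter were mostly higher as well on the authors' scale. For the counts in this and the next paragraph, 34.1% of all probe sets were called higher and 24.2% lower in *Nxt1* on that scale. In *aly* these shares were 44% and 20%. With the ribosomal median they were 11.2% higher and 77.7% lower in *Nxt1*, and 13% and 76% in *aly*. Of 16 measured general transcription factor genes, all were higher in both mutants, with median log2 differences of 1.61 in *Nxt1* and 1.72 in *aly*, and with arrays centred on the median of ribosomal protein probe sets 10 were higher and 2 lower in *Nxt1* and 9 and 4 in *aly*. *CycH* and *Mat1*, partners of the *Cdk7* kinase in TFIIH, differed from control by 2.37 and 2.09 in *Nxt1* and by 2.79 and 3.13 in *aly*. Of 12 listed RNA polymerase II subunit genes 6 were measured, *Polr2E*, *Polr2G*, *Polr2H*, *Polr2J*, *Polr2K* and *Polr2L*. Of these, 5 were higher in *Nxt1* and 6 in *aly* (medians 0.75 and 0.99). With the ribosomal median 0 were higher and 3 lower in *Nxt1* and 1 and 3 in *aly*. Among 12 genes of elongation and pausing, 9 were higher and 2 lower in each mutant, and with the ribosomal median 4 were higher and 4 lower in *Nxt1* and 6 and 5 in *aly*. *Spt5*, an elongation factor, was higher by 3.23 in *Nxt1* and 2.59 in *aly*, and *Cdk9*, the kinase that releases paused polymerase, by 2.61 and 2.66. *CycT*, the cyclin of *Cdk9*, was lower by 2.17 on the log2 scale in *Nxt1* (adjusted p = 1.04e-05) and by 1.35 in *aly* (adjusted p = 3.20e-04). The other gene called lower was not the same in the 2 mutants. *CycK* differed by -0.18 in *Nxt1* and 1.26 in *aly*, and *lilli* by 1.18 and -1.36, and each passed in both mutants on the authors' scale.

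Of the testis-specific partners, 3 of 4 measured testis TAF genes were higher in *Nxt1* and 4 in *aly* (medians 0.66 and 2.42). Of the 9 tMAC genes, 7 were higher and 1 lower in *Nxt1*, and 8 were higher in *aly*, where *aly* itself was lower (medians 1.37 and 2.05). Among 10 general TAF genes, 8 were higher in *Nxt1* and 9 in *aly* (medians 0.97 and 1.58). With the ribosomal median, testis TAF genes were 1 higher and 3 lower in *Nxt1* (median -0.47) and 3 and 1 in *aly* (median 1.20), general TAF genes 3 and 5 in *Nxt1* (median -0.16) and 5 and 4 in *aly* (median 0.36), and tMAC genes 4 and 2 in *Nxt1* (median 0.24) and 6 and 2 in *aly* (median 0.83).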

How the data were processed

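Total RNA of dissected adult testes was measured on 9 Affymetrix arrays, 3 per genotype. Per the labels the deposited signal intensity values come from GCOS and RMA, with versions not given in the sources used here, and they are linear, not log2, values. Of 18952 probe sets, 183 controls were left out. Of the remaining 18769, 13646 carry 1 gene symbol, 402 several and 4721 none, and 13543 of the first have a gene ID in the reference gene table. For each gene the probe set of 1 symbol with the highest mean log2 value was used. RMA summarises intensities without counts, and the number of arrays limits the precision.

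Linear models were fitted to log2 intensities of all 9 arrays with limma 3.58.1 (lmFit and eBayes) in R 4.3.3, with a mean for each genotype. P-values were corrected over the 18769 probe sets by the Benjamini-Hochberg method, and a call needed an adjusted p under 0.05. Differences are between mean log2 values, confidence intervals are 95%, and the fit was tested on simulated data. With 3 arrays a group no permutation test could reach the threshold. Values on every array are given for the 4 members with the largest difference in each direction from control in each mutant, the 4 with the largest between the mutants, the kinase module and *MED14*. *MED6*, *MED18* and *MED26* are named outside this rule. Of the general transcription factors, *CycH* had the largest difference from control in *Nxt1* and *Mat1* the largest in *aly*, and these are named. Of the elongation and pausing genes, the 3 with the largest absolute difference in *Nxt1* are named, and *CycK* and *lilli*, which passed in opposite directions. In *aly* the largest of that list was *NELF-B* (2.75). The members and the lists (transcription machinery, and markers of early germline, cyst and hub, muscle, accessory gland, fat body and spermatid-transcribed genes) were chosen with earlier results of these data known. Alternatives were array centring, linear means, a filter on dim probe sets, other choices of probe set, moderation with trend, 6 arrays per fit, a fold threshold, the replicate number as a block and leaving out each array. Promoter sequences were not analysed here. Tables were handled with pandas 2.3.3 and numpy 2.4.6, and figures drawn with matplotlib 3.10.9, under Python 3.11.15.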

Additional observations from a re-analysis of the deposited data

How the results depend on the processing

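The call of a member depended mainly on array scaling. Over 78 single-gene differences and 1560 values under the alternatives, 1455 kept direction and, where a p-value was computed, side of the threshold. Without turning, 24 lost the call and 21 gained it. A further 60 turned, with or without a call, most of them under the ribosomal and *CG3927* centrings. Means on the linear scale had no p-value. Part of the agreement was fixed in advance. Choosing among probe sets could change *skd* only, and leaving out an array of the third group cannot move a difference. Array values carry no depth, and the 3 arrays per genotype limit what can be called. The cause of the changes below was not tested beyond the shift that each centring takes off.

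With arrays centred on the ribosomal mean, in *Nxt1* minus control 14 members were higher, 4 lower, the members' median was 0.27, and a change of sign was seen for *CycC* (-0.0865), *MED1* (-0.21), *MED11* (-0.0867), *MED16* (-0.30), *MED18* (-0.15), *MED21* (-0.0119) and *MED30* (-0.27). In *aly* minus control 3 members were lower, the members' median was 1.03, and a change of sign was seen for *MED6* (-0.49) and *skd* (-0.19). With arrays centred on *CG3927*, in *Nxt1* minus control 10 members were higher, 6 lower, the members' median was 0.15, and a change of sign was seen for *CycC* (-0.21), *MED1* (-0.34), *MED11* (-0.21), *MED16* (-0.42), *MED18* (-0.27), *MED20* (-0.0876), *MED21* (-0.14) and *MED30* (-0.39). In *aly* minus control 6 members were lower, the members' median was 0.52, and a change of sign was seen for *MED15* (-0.22), *MED19* (-0.13), *MED27* (-0.30), *MED6* (-1.0015) and *skd* (-0.70). In *Nxt1* minus *aly* 10 members were higher and 11 lower (37.1% and 13.4% of all probe sets), the members' median was -0.0905, and a change of sign was seen for *MED10* (0.36), *MED19* (0.24), *MED26* (0.28) and *MED31* (0.28). With the ribosomal median, the added setting, in *Nxt1* minus control 8 members were higher, 10 lower, the members' median was -0.21, and a change of sign was seen for *CycC* (-0.57), *MED1* (-0.69), *MED11* (-0.57), *MED15* (-0.13), *MED16* (-0.78), *MED18* (-0.63), *MED19* (-0.25), *MED20* (-0.44), *MED21* (-0.49), *MED24* (-0.22), *MED27* (-0.20), *MED30* (-0.75), *MED6* (-0.28), *MED8* (-0.0683) and *skd* (-0.0593). In *aly* minus control 7 members were lower, the members' median was 0.43, and a change of sign was seen for *MED15* (-0.31), *MED19* (-0.21), *MED27* (-0.38), *MED6* (-1.08) and *skd* (-0.78). In *Nxt1* minus *aly* a change of sign was seen for *MED10* (0.0864), *MED26* (0.00577) and *MED31* (0.0106). With arrays centred on the array median, in *aly* minus control the members' median was 1.78, and a change of sign was seen for *MED18* (0.0943). In *Nxt1* minus *aly* the members' median was -0.58, and a change of sign was seen for *MED15* (-0.0472) and *MED27* (-0.0407). With means taken on the linear scale, *MED26* in *aly* minus control was 0.0052. With a 2-fold threshold, 11 members were higher in *Nxt1* minus control, and 0 were higher and 7 lower in *Nxt1* minus *aly*.

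Arrays were not paired by replicate number in the main fit. The 9 correlations of deviations between arrays of the same number lay between -0.229 and 0.349. Arrays of different number were not correlated for comparison, so these values cannot settle whether the numbers pair the arrays. With the replicate number as a block the counts were 24 higher and 1 lower in *Nxt1*, 22 and 1 in *aly*, and 4 and 14 for *Nxt1* minus *aly*, where *Cdk8* passed (0.35, adjusted p = 0.0275). Leaving out each array in turn gave 23 to 24 members higher in *Nxt1* (median 0.86 to 0.97), 21 to 24 in *aly* (median 1.57 to 1.70) and 3 to 4 higher and 14 to 15 lower for *Nxt1* minus *aly* (median -0.52 to -0.43), with *kto* the member lower in each mutant. The single differences that turned ranged over -0.0615 to 0.00852 for *MED18* in *aly* minus control, -0.48 to 0.35 for *MED26* in *aly* minus control, -0.0308 to 0.0147 for *MED10* in *Nxt1* minus *aly* and -0.59 to 0.25 for *MED26* in *Nxt1* minus *aly*.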
